A study of Drosophila melanogaster with 14 samples.

Results

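The genes described here encode the proteins of the cytosolic ribosome of Drosophila melanogaster. They were chosen by symbol: every gene named RpL or RpS with a number, RpLP with a number, sta or sop. The annotation of the genome build BDGP6 (release BDGP6.54) names 92 such genes, and 87 of them have a row among the 17558 gene identifiers of the count files. RpL19, RpL27A, RpL31, RpS10b and RpS12 were not analysed here: their current identifiers have no row. Since 306 of the 17558 identifiers have no entry in the annotation, a member listed under an older identifier would be missed. The gene sop is listed under its symbol RpS2. Of the 87 genes, 21 belong to pairs or groups of related copies (symbols that end in a, b, -1, -2 or -like), called duplicated members, and the other 66 are called single-copy members. RpL22, RpL24 and RpL7, whose copies carry the ending -like, stand among the single-copy members because their own symbols have no ending. The members lie on chromosome arms 2L (18), 2R (18), 3L (13) and 3R (23), on chromosome 4 (1) and on the X chromosome (14).

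A ribosome has a small subunit, which reads the mRNA and whose proteins carry RpS names, and a large subunit, which joins the amino acids and whose proteins carry RpL names. RpLP0, RpLP1 and RpLP2 form the stalk of the large subunit that recruits elongation factors, and sta encodes a small subunit protein at the mRNA exit. Growing cells make these proteins in near equal amounts, and loss of 1 gene copy of many of them gives the Minute phenotype of fly development, slow growth and short bristles. Some fly ribosomal proteins have a related copy that is used mainly in the germline, such as RpS5b in the ovary, RpS19b in germ cells and RpL22-like in the testis.

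Whole animals of 3 sets were compared, and all groups carried Df(2R)ED2076, a deletion on chromosome arm 2R. lola encodes a family of zinc finger transcription factors known from axon guidance. In the lola-F set, embryos with a stop mutation in the F isoform (lola-F stop / Df(2R)ED2076, 3 libraries) were set against wild-type chromosomes over the same deficiency (3 libraries). In the lola-null set, embryos with the allele lola E76 over Df(2R)ED2076 (2 libraries) were compared with their own wild-type over Df(2R)ED2076 controls (2 libraries). Embryos of both sets are labelled as 15 h old (a collection of 2 h, then 13 h at 25 °C), and the lola-F and lola-null embryos were picked by hand from their mCherry signal. In the lola-O set, adults with lola-O / Df(2R)ED2076 (2 libraries) and wild-type / Df(2R)ED2076 adults (2 libraries) were frozen within 10 h of eclosion. Pools held 100 embryos in the lola-F set and 10 adults in the lola-O set. Sexes are not given, and nothing in the labels says that libraries of a group came from separate crosses, so the tests measure the spread between these libraries, which may be technical.

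The libraries held between 3326811 gene counts (control 1 of the lola-F set) and 22629694 (mutant 3 of that set). In lola-F control 1, 66.7% of reads fell outside the gene counts. The share was 26.1% and 18.6% in lola-null mutants 1 and 2 and 44.5% and 30.6% in lola-null-set controls 1 and 2. It was 6.32% to 9.41% in all other libraries. The row FBgn0005630, taken to be lola under an older identifier on background knowledge and not from a table, was lower in each of the 3 lola-F mutants (151, 154 and 236 CPM) than in each control (259 to 361 CPM). CPM is the usual depth-normalised gene count. The library labelled lola-null mutant 1 held 1044 CPM, within the range of its controls (1016 and 1414 CPM), while mutant 2 held 369 CPM. By this row alone mutant 1 resembled its controls. By other genes it resembled mutant 2. Cuticle markers summed to 1159 and 1308 CPM in mutants 1 and 2, against 7.18 and 4.37 CPM in controls 1 and 2. Neuron markers summed to 127 and 140 against 699 and 586 CPM. The label of mutant 1 was not tested further. Since the row sets mutant 1 apart, medians and some other values of this set are also given without mutant 1. The lola-O mutants (113 and 110 CPM) lay between their controls (97.0 and 125 CPM). A list of 10 adult genes summed to 105 to 130 CPM in the lola-F-set controls and to 10944 to 18712 CPM in the adult controls on a common scale, as the stage labels say. The controls of the lola-null set differed from those of the lola-F set in germline, midgut and muscle markers, as given with the comparison of controls.

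Ribosomal protein genes were among the most heavily counted genes of the embryo. They took 14.2%, 16.5% and 15.2% of all gene counts in lola-F-set controls 1 to 3, and 14.7% and 11.4% in the lola-null-set controls. In adult controls their share was 4.0% and 3.1%. The embryo controls thus lay well above the adult controls, with no overlap. These libraries are of whole animals, where fewer cells of a type and less RNA per cell cannot be told apart.

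The mutant embryos held larger shares in most libraries. The lola-F mutants had 21.04%, 19.8% and 26.7% of counts in these genes, all above the 3 controls of the set. The lola-null mutants had 13.7% (mutant 1) and 24.5% (mutant 2), the first between its controls and the second far above them. The lola-O mutants had 3.6% and 3.9%, both between the 2 adult controls. A share is a description of a library and was not tested.

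**Figure D1:**
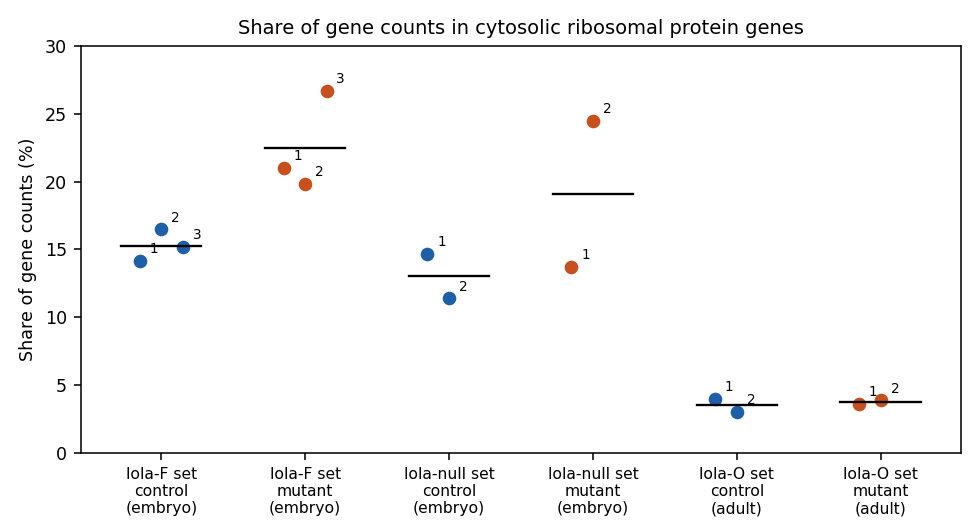
Share of gene counts (%) taken by the 87 ribosomal protein genes, with 1 point per library numbered by replicate, blue for controls and orange for mutants, and a line at each group mean. The 3 lola-F mutants (19.8% to 26.7%) lie above their controls (14.2% to 16.5%), the 2 lola-null mutants differ from each other, and all 4 adult libraries lie between 3.1% and 4.0%.

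Within the control embryos of the lola-F set the single-copy genes spanned a 8.74-fold range of abundance per length. Divided by exonic length, their level ran from 936 CPM per kb (RpL24) to 8182 (RpL41), with a median of 2160. RpL41, which encodes the smallest protein of the large subunit, was followed by RpL39 (4439 CPM per kb), another very small protein, and by RpS27A (4071), which is made as a fusion to ubiquitin. The least abundant were RpL24 (936), RpS21 (943) and RpL22 (949). Their order was much alike in the other controls: across the 66 genes Spearman's rho was 0.93 between lola-F-set and adult controls and 0.83 between lola-F-set and lola-null-set controls. The genes of 1 library share its depth and base composition and are not replicates. RpL41 ranked first in all 3 control groups, while RpL38 moved from rank 60 in the lola-F-set controls to the last rank, 66, in the lola-null-set controls.

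In lola-F mutant embryos nearly the whole set of ribosomal protein genes stood higher than in controls by a similar factor. Of 83 members tested, 26 rose and 0 fell at an adjusted p under 0.05 (edgeR's quasi-likelihood test with Benjamini-Hochberg adjustment over 10191 genes), where 3.33% of all tested genes rose and 3.73% fell, 7.06% in all. At an unadjusted p under 0.05, 78 members were higher and 0 lower, where 3172 of the 10191 genes passed in either direction. DESeq2 called 77 members higher and 0 lower, where it called 815 of all genes higher and 1117 lower. All 66 single-copy members had a positive log2 fold change, with a median of 0.80 (1.74-fold) against 0.02 over all genes tested. In 79 of the 83 members every mutant library exceeded every control library, as did 20.5% of all tested genes (19.5% had every mutant below), and the exceptions were RpL38, RpL22-like, RpL37-2 and RpS10a. The tests lie close to the threshold: adjusted p of the single-copy members ran from 0.038 to 0.222, with a median of 0.0546.

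The single-copy genes moved as a block. Their log2 fold changes had an SD of 0.10 against 0.64 over all genes, and their interquartile range was 0.10 against 0.68. Large subunit genes (38, median 0.78, 12 rose), small subunit genes (25, median 0.83, 9 rose) and the stalk genes (3, median 0.84, 1 rose) had like values. So had the 7 single-copy genes on the X chromosome (median 0.84, 1 rose) and the 59 on autosomes (0.80, 21 rose). Differences between these classes were not tested.

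Among the stalk genes, RpLP0 stood at 3184, 2874 and 4253 CPM in mutants 1 to 3 and at 1570, 2026 and 1742 CPM in controls 1 to 3. Each mutant lay above each control, and mutant 3 was the highest library. RpLP0 rose 1.93-fold (log2 0.95 ± 0.19 SE, adjusted p = 0.038). RpLP1 (4260, 3989 and 6806 against 2507, 3051 and 3084 CPM) and RpLP2 (3278, 2983 and 5023 against 1829, 2285 and 2203 CPM) also had no overlap between groups. Neither passed, with log2 fold changes of 0.80 ± 0.23 (adjusted p = 0.0679) and 0.84 ± 0.22 (0.0581).

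In the large subunit, RpL24 had the largest change of the single-copy members that passed. Its level was 2050, 1830 and 3150 CPM in the mutants and 872, 1252 and 1272 CPM in the controls. Control 1 was the lowest library and mutant 3 the highest. RpL24 rose 2.07-fold (log2 1.05 ± 0.25, adjusted p = 0.048). RpL37A, a zinc-binding protein of the large subunit, rose 1.88-fold (1813, 1605 and 2481 against 919, 1146 and 1081 CPM, log2 0.91 ± 0.19, adjusted p = 0.042). The abundant RpL41 (log2 0.77 ± 0.17, adjusted p = 0.0448) and RpL39 (0.77 ± 0.18, adjusted p = 0.0452) rose by close to the median. RpL40, the other ubiquitin fusion, did not pass (0.76 ± 0.24, adjusted p = 0.0811), nor did the scarce RpL22 (0.72 ± 0.28, adjusted p = 0.136).

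In the small subunit, RpS27A was at 3631, 3232 and 4311 CPM against 2215, 2454 and 2265 CPM and rose 1.61-fold (log2 0.69 ± 0.15, adjusted p = 0.0428). RpS21 rose 1.80-fold (log2 0.85 ± 0.19, adjusted p = 0.0448). In both genes the groups did not overlap. RpS6, the target of S6 kinase, was at 3316, 2948 and 4824 CPM against 1768, 2273 and 2142 CPM and did not pass (log2 0.84 ± 0.21, adjusted p = 0.0537). RpS26 (0.94 ± 0.25, adjusted p = 0.0582), sta (0.79 ± 0.20, adjusted p = 0.0541) and RpS2 (0.72 ± 0.20, adjusted p = 0.0673) likewise missed the threshold without overlap between groups.

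The smallest difference of a single-copy member belonged to RpL38. Its level was 1550, 1514 and 1795 CPM in the mutants and 1570, 1184 and 1070 CPM in the controls, so that control 1 lay inside the range of the mutants (log2 0.35 ± 0.18, adjusted p = 0.222). RpS3A (0.52 ± 0.15, adjusted p = 0.0675) and RpL5, which carries 5S ribosomal RNA to the ribosome (0.60 ± 0.18, adjusted p = 0.0808), were the next lowest. Both had every mutant above every control.

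The size of the difference depended on the library. Relative to the control mean on the log2 scale, the median single-copy gene stood at 0.65 in mutant 1, 0.51 in mutant 2 and 1.17 in mutant 3. The controls stood at −0.19, 0.11 and 0.09, against medians over all genes of −0.03 to 0.04 in the 6 libraries. All 66 genes lay above the control mean in each of the 3 mutants. Without mutant 3, the library farthest from the rest, 46 members rose and the median was 0.60. The count fell to 0 without mutant 1, mutant 2, control 1 or control 2 and to 4 without control 3, with medians of 0.71 to 0.97. In the 4 fits with 0 members called, 0 genes of the whole table passed, while 76 to 78 members had an unadjusted p under 0.05. So had 2277 to 2874 genes of the whole table, in either direction. A fit that removed the trend of each library with gene length left 1 member higher and a median of 0.58. Tissue markers moved with the genotype in the same libraries. The 10 midgut markers summed to 8005 to 10045 CPM in mutants against 4039 to 4850 CPM in controls (6 of 10 rose), and the 8 neuron markers in the files to 492 to 737 against 918 to 1675 CPM (3 of 8 fell). The 9 muscle markers summed to 33095 to 35510 against 24466 to 28998 CPM (3 rose, 2 fell). No marker of these lists was at 0 in any library of the set. Their part in the ribosomal protein result was not tested.

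**Figure D2:**
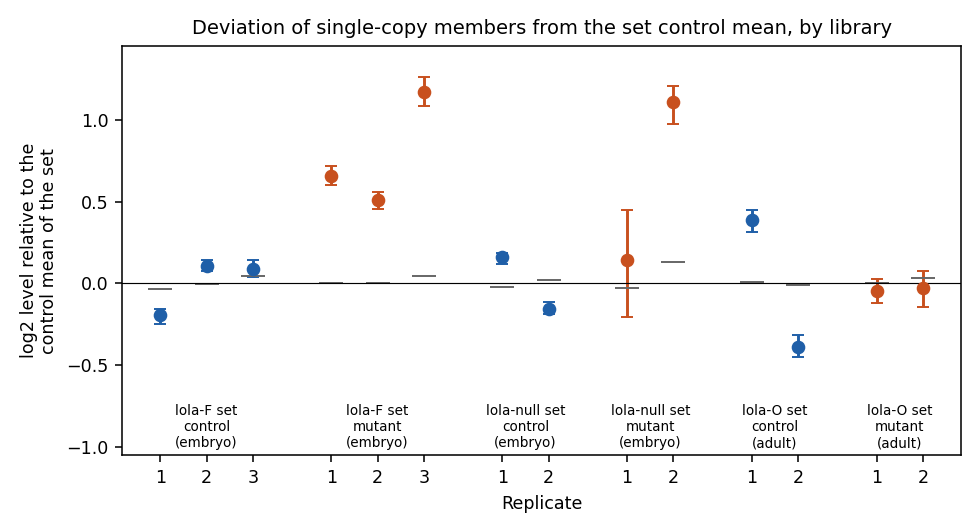
Median log2 level of the 66 single-copy ribosomal protein genes in each library relative to the control mean of its set, with bars over the middle 50% of these genes and a grey dash at the median of all tested genes. The lola-F mutants stand at 0.65, 0.51 and 1.17, lola-null mutant 2 at 1.11 and mutant 1 at 0.14 with a wide spread, and the 2 adult controls at 0.39 and −0.39.

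The duplicated members mostly followed the single-copy ones in lola-F embryos: 17 were tested, 4 rose, and the median log2 fold change was 0.77. RpS5b stood apart from its partner RpS5a. RpS5b (chromosome 3R, 14900432 to 14901563, minus strand) was at 187, 161 and 329 CPM in the mutants and at 72.8, 105 and 59.4 CPM in the controls. Every mutant exceeded every control, and RpS5b rose 2.85-fold (log2 1.51 ± 0.32, adjusted p = 0.042), the largest change among the members. RpS5a was at 3020, 2769 and 4003 CPM against 1782, 2144 and 2135 CPM (log2 0.69 ± 0.18, adjusted p = 0.0549). Leaving out any 1 of the 6 libraries kept the log2 fold change of RpS5b between 1.15 and 1.78 and took its adjusted p to between 0.052 and 0.137.

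The other duplicated members that rose were RpL10Ab (log2 0.87 ± 0.20, adjusted p = 0.0461), RpL34a (0.69 ± 0.15, adjusted p = 0.042) and RpS28b (0.77 ± 0.16, adjusted p = 0.0405). RpS14a and RpS14b, neighbours on the X chromosome whose encoded proteins are identical, had log2 fold changes of 0.87 ± 0.24 (adjusted p = 0.0656) and 0.91 ± 0.28 (0.0803). The files keep reads with several alignments outside the gene counts, so their values are uncertain to that extent. The other abundant copies, RpL24-like, RpL34b, RpL37-1, RpS15Aa, RpS15Ab and RpS19a, had log2 fold changes between 0.61 and 0.90 and adjusted p between 0.0536 and 0.0759, so that none passed. The copies listed at the lowest levels, RpL37-2 (0.79 to 2.04 CPM over the 6 libraries), RpS10a (0 to 1.53 CPM) and RpS19b (1.32 to 3.23 CPM), did not pass. RpL10Aa and RpS28a had 0 counts in all 10 embryo libraries.

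In lola-null embryos 0 of 82 members tested rose and 1 fell, where 7.42% of 9288 genes rose and 9.49% fell, 16.9% in all (edgeR's quasi-likelihood test). At an unadjusted p under 0.05, 5 members were higher and 2 lower, where 2559 of all genes passed in either direction. DESeq2 called 0 members in either direction, where it called 589 of all genes higher and 839 lower. The 66 single-copy members all had positive log2 fold changes, with a median of 0.69 against 0.09 over all genes and standard errors of 0.48 to 0.52. In 40 members both mutants exceeded both controls and in 2 both lay below, against 29.3% and 26.7% of all tested genes.

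The 2 mutant libraries differed from each other. Relative to the control mean the median single-copy gene stood at 0.14 in mutant 1, with the middle 50% of genes between −0.21 and 0.45, and at 1.11 in mutant 2, between 0.97 and 1.21. The controls stood at 0.16 and −0.16. In mutant 1, 39 of 66 genes lay above the control mean, and in mutant 2 all 66 did. Without mutant 1, the library with lola at the control level, 59 members rose, 1 fell and the median was 0.98, where 12.7% of 9370 genes rose and 20.5% fell. Without mutant 2, 1 rose, 2 fell and the median was 0.15. With a lone library in the mutant group, each of these fits takes its spread from the controls and assumes that the lone library varies like them.

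Single genes show the same split. RpLP0 was at 713 CPM in mutant 1, 1741 in mutant 2 and 976 and 869 CPM in the controls, so that mutant 1 was the lowest library and mutant 2 the highest (log2 0.41 ± 0.50, adjusted p = 0.638). RpS3, which also acts in DNA repair, was at 856 and 2005 CPM against 1456 and 1240 CPM, and had the smallest log2 fold change of the single-copy members (0.09 ± 0.50, adjusted p = 0.934). RpL28, RpS29 and RpL36 had the largest. RpL28 was at 1270 and 2341 against 920 and 668 CPM (log2 1.18 ± 0.50, adjusted p = 0.11), with both mutants above both controls, and RpS29 at 1876 and 3094 against 1235 and 1136 CPM (1.07 ± 0.49, adjusted p = 0.152). None of these passed. Without mutant 1, RpL28 (1.447 ± 0.34, adjusted p = 0.000155) and RpS29 (1.27 ± 0.34, adjusted p = 0.00133) rose, while RpLP0 (0.81 ± 0.34, adjusted p = 0.0534) and RpS3 (0.46 ± 0.35, adjusted p = 0.317) did not pass.

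RpL22-like was the member that fell. Its level was 2.29 and 1.28 CPM in the mutants and 1.96 and 15.0 CPM in the controls, and the counts behind these values were 14, 5, 9 and 110. The first mutant lay above the first control, so the groups overlapped, and the fitted log2 fold change of −2.23 ± 0.69 (adjusted p = 0.0217) rests on control 2. Without that library the gene did not reach the minimum count for testing, and without mutant 1 its log2 fold change was −2.85 (adjusted p = 0.00116). None of the other duplicated members tested passed, from RpL34b (log2 1.10 ± 0.51, adjusted p = 0.155) and RpL24-like (1.01 ± 0.47, adjusted p = 0.154) down to RpS19b (−0.67 ± 0.62, adjusted p = 0.514) and RpS5b. RpL22 itself was at 815 and 1431 against 935 and 736 CPM (log2 0.43 ± 0.49, adjusted p = 0.612).

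Other tissue markers differed more widely in this set. The 10 cuticle markers summed to 1159 to 1308 CPM in mutants against 4.37 to 7.18 CPM in controls (7 of 7 tested rose), and the 8 neuron markers to 127 to 140 against 586 to 699 CPM (7 of 8 fell). Cpr64Aa and Edg84A of the cuticle list were at 0 in both mutants, 3 or 4 cuticle genes were at 0 in each control, and no neuron marker was at 0. Ccp84Ae and Cpr67Fa1 were at 0 in both controls. With control sums this low, cuticle genes could pass the count filter through the mutants alone and then only be called as rises. The cuticle count of 7 of 7 is thus a description and no open test. Unlike the ribosomal protein genes, both lists had like sums in the 2 mutants. Their part in the ribosomal protein values was not tested.

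The 2 embryo effects were then compared in 1 fit, as the lola-null effect minus the lola-F effect. Over 10848 genes, 6.90% had a higher difference and 1.69% a lower one, 8.59% in all, and the median was 0.31. Of 83 members, 0 had a higher and 1 a lower difference (1 higher and 2 lower at an unadjusted p under 0.05, and 0 higher and 1 lower in DESeq2). Over all genes, 2664 had an unadjusted p under 0.05 in either direction, and DESeq2 called 945 higher and 335 lower. The median of the 66 single-copy members was 0.13 on the log2 scale, with standard errors of 0.24 to 0.50. Its sign depended on the scaling and on single libraries: it was −0.15 with upper quartile scaling, where the median of all genes was −0.00, and −0.46 to 0.44 without each library in turn. Across these 66 genes, the log2 fold changes of the lola-F and lola-null sets had a Spearman's rho of 0.12, so the order of the genes within the block was hardly shared.

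The member whose 2 effects differed was RpS5b. In the lola-null set it stood at 160 and 347 CPM in the mutants and at 635 and 438 CPM in the controls. Both mutants lay below both controls, opposite to the lola-F set (log2 −1.08 ± 0.50, adjusted p = 0.149). Its log2 fold change was −1.73 without mutant 2 and −0.74 without mutant 1, each a fit with 1 mutant library. RpS5b passed as lower in edgeR with the length trend removed (−1.82, adjusted p = 0.000227). It also passed with crossed replicate pairs, a setting chosen after seeing the data (−1.16, adjusted p = 0.0322). It did not pass in DESeq2 (−1.15, adjusted p = 0.0817) or with the replicate block in edgeR (−1.16, adjusted p = 0.405). The difference between the effects was −2.39 ± 0.56 (adjusted p = 0.0272). The difference kept its direction without each of the 10 libraries in turn, from −3.04 to −2.01, with adjusted p of 0.0156 to 0.103, and it missed 0.05 without lola-F control 1 and without lola-null mutant 1, control 1 or control 2. Without lola-null control 1, RpL22-like passed in its place. The 8 germline markers in the files summed to 550 to 976 CPM in lola-null-set controls against 277 to 436 CPM in the mutants (4 of 8 fell), and to 38.7 to 73.9 CPM in the lola-F-set controls against 32.6 to 71.99 CPM in the mutants (0 of 8 rose, 1 fell). Their part in the RpS5b values was not tested.

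In lola-O adults 0 of 86 members passed in either direction in edgeR, where 0.333% of 12906 genes rose and 0.225% fell, 0.558% in all. At an unadjusted p under 0.05 the count was also 0, where 2085 of all genes passed. DESeq2 called 0 members, where it called 163 of all genes higher and 179 lower. The median log2 fold change of the single-copy members was −0.08 against 0.01 over all genes, with standard errors of 0.25 to 0.38. In 83 of 86 members the groups overlapped, with 1 above and 2 below without overlap (25.3% and 23.4% of all tested genes).

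The adult controls bracketed the mutants. RpLP0 was at 402 and 437 CPM in the mutants and at 671 and 318 CPM in the controls (log2 −0.24 ± 0.36, adjusted p = 0.802). RpL24 was at 298 and 324 against 512 and 265 CPM (−0.32 ± 0.33, adjusted p = 0.69), and RpS6 at 567 and 624 against 727 and 424 CPM (0.05 ± 0.32, adjusted p = 0.959). In each of these genes control 1 was the highest library and control 2 the lowest. Relative to their mean, all 66 single-copy genes lay above it in control 1 (median 0.39) and all 66 below it in control 2 (−0.39), while the mutants stood at −0.05 and −0.03. Without control 1 the median difference became 0.33 and without control 2 −0.42, with 0 members called in both cases. The muscle markers, summed over 9 genes, ran from 29434 to 54514 CPM in the controls and from 29777 to 29865 CPM in the mutants (0 of 9 called). The part of muscle content in these values was not tested.

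Control animals were compared across stages in 1 fit of the 7 control libraries (13238 genes). Stage and set cannot be told apart in these comparisons, and both share the lola-F-set controls. Against the lola-F-set embryo controls, 78 of 85 members fell in adults and 6 rose, where 24% of all tested genes fell and 39.9% rose, 64% in all. All 66 single-copy members fell. Their median log2 fold change was −1.64, against 0.23 over all genes, which is 0.321 of the embryo level, and it ranged from −1.99 ± 0.25 (RpL38) to −1.26 ± 0.33 (RpL24).

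On the common scale RpL38 was at 1583, 1249 and 1137 CPM in the embryo controls and at 369 and 299 CPM in the adults (adjusted p = 6.1e-05), and RpL24 at 879, 1322 and 1351 against 645 and 342 CPM (adjusted p = 0.00669). RpLP0 fell from 1583, 2138 and 1851 CPM to 846 and 411 CPM (log2 −1.56 ± 0.33, adjusted p = 0.00196). Every lola-F-set control lay above every adult library in these genes. The lola-null-set control 2 lay below adult control 1 in RpL24 (602 against 645 CPM) and RpLP0 (809 against 846 CPM). Relative to the embryo mean, adult control 1 stood at −1.28 and adult control 2 at −2.07, medians over the single-copy members, so the 2 adult libraries differed by almost as much as the lola-F mutants did from their controls. Removing the trend with gene length moved the median to −3.53.

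**Figure D3:**
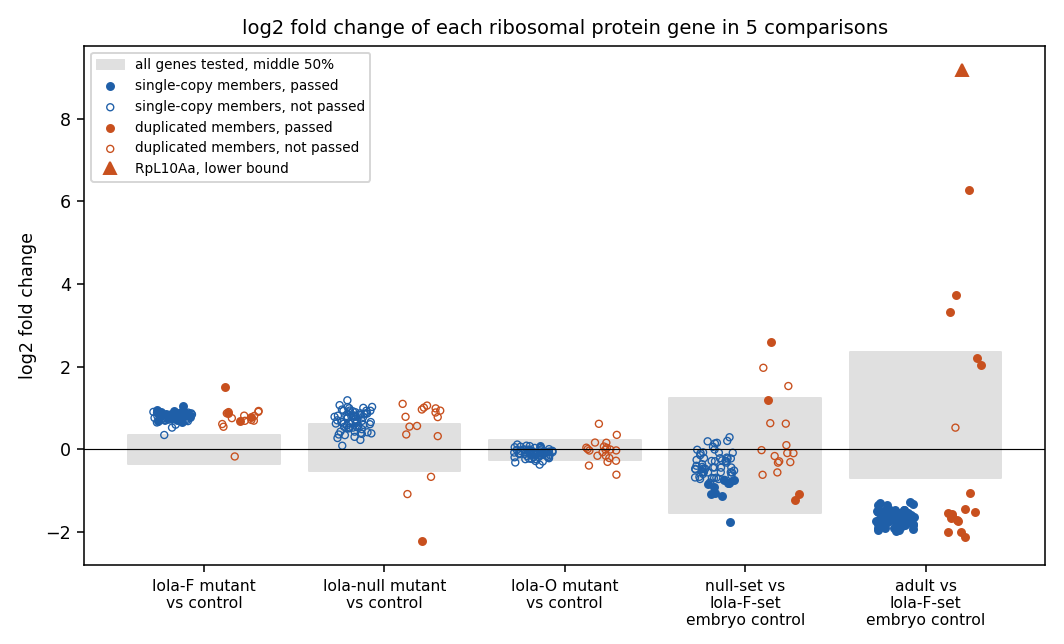
log2 fold change of each member tested in 5 comparisons, blue for single-copy and orange for duplicated members, filled where the adjusted p was under 0.05, over a grey band with the middle 50% of all tested genes. Single-copy members lie near 0.80 in lola-F embryos (22 of 66 filled), near 0.69 in lola-null embryos (0 filled), near −0.08 in lola-O adults (0 filled) and near −1.64 in adult against embryo controls (66 filled). The triangle marks RpL10Aa at the lower bound of its adult increase.

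The members that rose in adults were all duplicated ones: RpL10Aa, RpS28-like, RpS19b, RpS10a, RpL22-like and RpL37-2. RpL10Aa and RpS28-like passed the count filter only through the adult libraries, so they could only be called as rises. RpL10Aa (chromosome 3R, 15037366 to 15038149, plus strand) had 0 counts in all 5 embryo controls and stood at 54.2 and 91.1 CPM in the adult controls. Against a floor of 3 counts over the 3 lola-F-set controls (0.125 CPM), it was at least 582-fold higher in adults. Its partner RpL10Ab fell, from 2167, 2774 and 2944 CPM to 1063 and 597 CPM (log2 −1.66 ± 0.33, adjusted p = 0.00139). Per length, RpL10Aa thus made up 5.88% and 15.8% of the pair in adult controls 1 and 2 and 11.7% and 11.8% in the adult mutants. RpL10Aa was higher, and RpL10Ab lower, in control 2 than in control 1.

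RpS19b (chromosome 3R, 23932729 to 23933530, minus strand) rose from 1.86, 1.40 and 1.46 CPM to 18.6 and 22.6 CPM (log2 3.73 ± 0.33, adjusted p = 4.8e-06), while RpS19a fell (−1.55 ± 0.31, adjusted p = 0.00129). RpS10a rose from 0, 0.645 and 0.915 CPM to 5.09 and 7.55 CPM (log2 3.33 ± 0.61, adjusted p = 0.000816). RpL37-2 rose from 0.795, 2.15 and 1.19 CPM to 5.39 and 6.62 CPM (log2 2.05 ± 0.48, adjusted p = 0.00353). None of the 3 overlapped between the stages, and all stayed far below their partners where these were measured: RpS19b was at most 8.18% and RpL37-2 at most 4.29% of its pair per length in the adult controls.

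RpL22-like rose from 3.71, 5.59 and 6.22 CPM to 20.2 and 29.0 CPM (log2 2.22 ± 0.59, adjusted p = 0.0075), and in adult controls made up 4.30% and 11.3% of the pair with RpL22. The calls of RpL22-like (log2 1.94, adjusted p = 0.069) and RpL37-2 (1.90, adjusted p = 0.0642) were lost without adult control 2. With the length trend removed, those of RpL22-like (0.64, adjusted p = 0.317), RpL37-2 (0.15, adjusted p = 0.783) and RpS10a (1.19, adjusted p = 0.0858) were lost. RpS28-like had 0, 1 and 1 counts in the embryo controls and 41 and 96 in the adults, a ratio of 94.5 per scaled count with an exact 95% counting interval of 25.7 to 788 (adjusted p = 5.9e-05 in edgeR). RpS28a, at 0 in every embryo library, had 9 and 29 counts in the adult controls, at least 16.2-fold above the same floor, and too few to be tested. RpL7-like was listed at 0 in every embryo control and had 1 read's worth, 0.0932 CPM, in adult control 2. Exons of RpL7-like and RpS28-like overlap a gene on the same strand (CG34164 and CG3769), so reads set aside as ambiguous may be missing from their counts.

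The remaining duplicated members behaved like the single-copy ones. In all, 12 fell, among them RpS28b (log2 −1.048 ± 0.28, adjusted p = 0.00807), RpS5a (−1.56 ± 0.30, adjusted p = 0.00108), RpL37-1 (−1.73 ± 0.29, adjusted p = 0.000386), RpS5b (−2.11 ± 0.31, adjusted p = 0.000178), RpL34b (−2.003 ± 0.38, adjusted p = 0.000966) and RpL24-like (−2.01 ± 0.28, adjusted p = 0.000127), a relative of a yeast ribosome assembly factor. RpS15Ab was the tested member that did not pass, at 19.4, 25.0 and 17.8 CPM in the embryo controls and 33.4 and 26.4 CPM in the adults (0.52 ± 0.25, adjusted p = 0.091), while RpS15Aa fell (−1.51 ± 0.25, adjusted p = 0.0004). Testis markers moved with the copies that rose: 10 of 10 rose in adults, and their sum was 1249 to 1712 CPM in adult controls against 46.0 to 74.1 CPM in the lola-F-set controls and 726 to 1013 CPM in the lola-null-set controls. In the lola-null-set controls CycB3 alone held 657 and 953 CPM of that sum. There 1 of the 10 was higher and 1 lower than in the lola-F-set controls, and 2 and 6 of the 10 were at 0. In the lola-F-set controls dj was at 0 in all 3 libraries and up to 6 of the 10 were at 0. Since dj was also at 0 in the lola-null-set controls, it passed the count filter only through the adults and could only be called as a rise. The same holds for Mst84Da, Mst87F, aly, can, comr and sa, which were at most at 0.598 CPM in any embryo control. The count of 10 of 10 was thus largely fixed by the filter. Their part in the rise of the duplicated members was not tested.

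**Figure D4:**
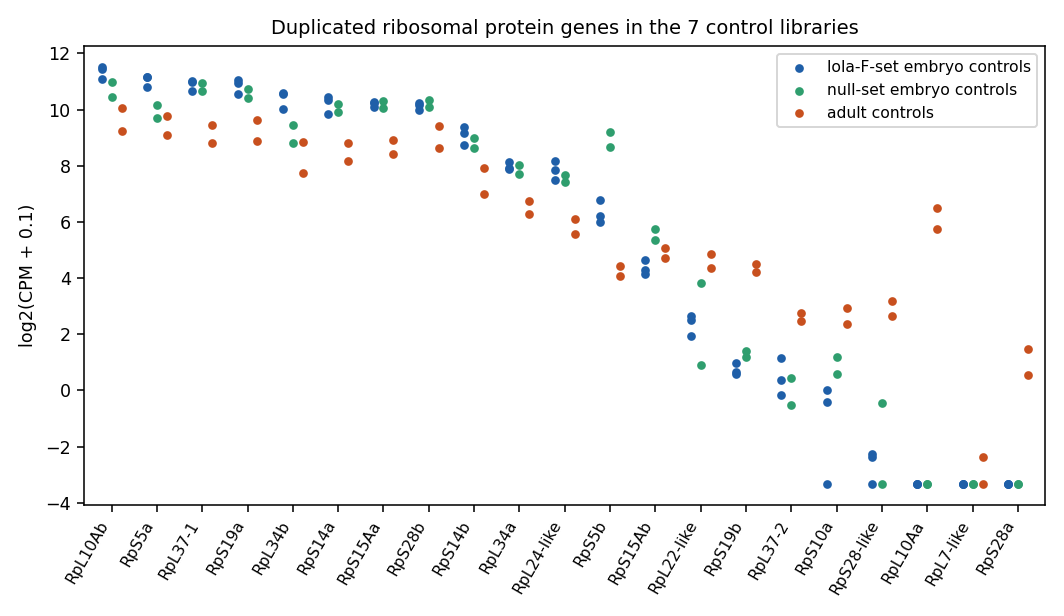
Level of the 21 duplicated members in each of the 7 control libraries, as log2 of CPM plus 0.1 on the common scale, ordered by their mean in the lola-F-set controls. Adult points (orange) lie below the lola-F-set points (blue) for the abundant copies other than RpS15Ab. They lie above all embryo points for RpS10a, RpS19b, RpS28-like, RpL10Aa, RpL22-like and RpL37-2. For RpL34b the lola-null-set control 2 (449 CPM) lies below adult control 1 (462 CPM). RpS5b is highest in the lola-null-set controls (green).

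The controls of the lola-null set, though labelled with the same age, differed from those of the lola-F set in 14 of 85 members. Of these, 12 were lower and 2 higher, where 27.8% of all tested genes were lower and 30.1% higher, 57.9% in all. The single-copy median was −0.47 against 0.00 over all genes. The genes tested include some that passed the count filter only through the adult libraries of the same fit, such as RpL10Aa, with no counts in these embryo controls. The shares and the median over all genes include such genes. The count of lower members was 7 without lola-F-set control 2 and 4 without lola-null-set control 2, where RpLP0, RpS25 and RpL34b no longer passed. It depended on how libraries were scaled. It was 33 with median-of-ratios factors, 29 with upper quartile scaling and 41 in DESeq2. Under these settings 4024, 3971 and 3920 of the 13238 genes were lower. With the length trend removed it was 3, with 8 higher and a median of 0.13. There 3374 of all genes were lower and 4571 higher.

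RpL38 had the largest decrease, from 1583, 1249 and 1137 CPM in the lola-F-set controls to 399 and 389 CPM (log2 −1.75 ± 0.25, adjusted p = 0.000144). RpLP0 was at 894 and 809 CPM against 1583 to 2138 CPM (−1.13 ± 0.32, adjusted p = 0.0124). RpS25 (−1.08 ± 0.31, adjusted p = 0.0121) and RpL36A (−1.07 ± 0.25, adjusted p = 0.00424) were also lower. These genes had no overlap between the 2 control groups. The other single-copy members that were lower were RpL12, RpL13A, RpL28, RpL30, RpL40 and RpS27A, between −0.91 and −0.74. RpS6 was at 2588 and 1900 against 1782 to 2399 CPM and did not pass (0.06 ± 0.30, adjusted p = 0.925).

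RpS5b was 5.996-fold higher in the lola-null-set controls, at 582 and 408 CPM against 73.4, 111 and 63.2 CPM (log2 2.58 ± 0.28, adjusted p = 2.2e-05), while RpS5a was lower (1146 and 838 against 1797, 2263 and 2268 CPM, −1.09 ± 0.29, adjusted p = 0.00897). RpS15Ab was also higher (40.7 and 54.2 against 17.8 to 25.0 CPM, log2 1.195 ± 0.25, adjusted p = 0.00187), and RpL34b lower (−1.23 ± 0.37, adjusted p = 0.0142). RpL34a did not pass (−0.09 ± 0.22, adjusted p = 0.777), so that its share of the RpL34 pair per length was 35.8% and 41.1% in lola-null-set controls and 19.6% to 25.0% in the lola-F set. RpL22-like, which differed widely between the 2 lola-null-set controls, did not pass (0.62 ± 0.61, adjusted p = 0.424). It passed as lower without control 2 (−1.61, adjusted p = 0.0329) and as higher without control 1 (1.35, adjusted p = 0.0154).

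Germline markers stood higher in the lola-null-set controls (8 of 8 rose, 504 to 909 against 41.1 to 74.5 CPM summed, with osk at 0 in lola-F-set control 3), as did maternal markers (6 of 6 tested, 534 to 876 against 58.8 to 75.5 CPM, with Cp36 at 0 in all 5 libraries). Of the maternal list, Vm26Aa was at 0 in every lola-F-set control, and bcd and osk in control 3. A gene at 0 in every lola-F-set control could only be called as higher, so 6 of 6 is a description. The midgut sum was 37.8 to 54.0 CPM against 4072 to 5118 CPM (9 of 10 fell, Npc2c at 0 in both lola-null-set controls) and the muscle sum 4085 to 5776 against 24664 to 30814 CPM (7 of 9 fell, none at 0). Their part in the ribosomal protein differences was not tested.

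The rest of the translation machinery was read from 3 lists of other genes. Of 39 translation factor genes, 2 rose and 2 fell in lola-F embryos, where 3.33% of all tested genes rose and 3.73% fell, with a median log2 fold change of 0.28 against 0.02 over all genes. Nacalpha, which binds nascent chains (0.65 ± 0.14, adjusted p = 0.0421), and eEF1beta, the exchange factor of eEF1A (0.73 ± 0.17, adjusted p = 0.0455), rose, and the initiation factors eIF4G1 (−1.30 ± 0.24, adjusted p = 0.0342) and eIF4H1 (−0.99 ± 0.18, adjusted p = 0.0336) fell. In lola-null embryos 0 rose and 4 fell (7.42% and 9.49% of all tested genes), among them eIF4H1 (−2.81 ± 0.53, adjusted p = 0.000234). Without lola-null mutant 1, which leaves 1 mutant library, the list median was 0.27 against −0.0032 over all genes, and eIF4H1 stood at −2.19. In lola-O adults 0 passed, where 0.558% of all tested genes did. In adult against lola-F-set embryo controls 26 fell (24% of all tested genes) and 1 rose (39.9%), eEF1alpha2, the form of eEF1A used in nerve and muscle (4.24 ± 0.30, adjusted p = 8.8e-07).

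Of 40 genes for ribosome assembly and RNA polymerase I, 0 rose and 1 fell in lola-F embryos, where 3.33% of all tested genes rose and 3.73% fell. The gene that fell was Polr1A, the largest polymerase subunit (−0.84 ± 0.18, adjusted p = 0.0428). The median of this list was −0.37 where that of the single-copy ribosomal protein genes was 0.80. In the lola-null and lola-O sets 0 passed (medians 0.24 and 0.26), where 16.9% and 0.558% of all tested genes did. Without lola-null mutant 1, 7 rose and 6 fell, where 12.7% of all tested genes rose and 20.5% fell. In the comparison of the 2 effects, where 6.90% of all tested genes had a higher difference, 4 did: NHP2 (1.77 ± 0.41, adjusted p = 0.0274), Nop56 (1.76 ± 0.39, adjusted p = 0.0217), RpLP0-like (1.47 ± 0.32, adjusted p = 0.0189) and Non3 (1.56 ± 0.41, adjusted p = 0.0444), where the median over all genes was 0.31. In adult controls 37 of the 40 fell, with a median of −2.04, where 24% of all tested genes fell and 39.9% rose.

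Of 24 regulators of growth, 1 rose and 5 fell in lola-F embryos, where 3.33% of all tested genes rose and 3.73% fell. Their median log2 fold change was −0.28. Thor, the inhibitor of the cap-binding protein eIF4E, rose from 473 to 743 CPM in controls to 900 to 1148 CPM in mutants (0.85 ± 0.20, adjusted p = 0.0479). Myc, a transcription factor known to drive ribosome synthesis, fell from 110 to 159 CPM to 41.4 to 75.9 CPM (−1.21 ± 0.25, adjusted p = 0.0411). In lola-null embryos 9 fell and 0 rose (9.49% and 7.42% of all tested genes), with a median of −0.40. There Myc stood at 8.36 and 17.5 CPM against 117 and 142 CPM (−3.34 ± 0.47, adjusted p = 4.8e-06), low in both mutants. Without lola-null mutant 1, which leaves 1 mutant library, the median of the regulators was −1.17 against −0.0032 over all genes, and Myc stood at −2.99. The other regulators that fell in lola-F embryos were Mnt, mei-P26, raptor and Trf2, of which Mnt, mei-P26 and Trf2 also fell in lola-null embryos. Xrp1, the factor induced when a ribosomal protein gene is lost, did not pass in lola-F (−0.49 ± 0.24, adjusted p = 0.201), lola-null (−0.88 ± 0.45, adjusted p = 0.206) or lola-O animals (0.16 ± 0.23, adjusted p = 0.783). In lola-O adults 0 regulators passed, where 0.558% of all tested genes did.

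The members tend to be short. Exonic lengths of the 66 single-copy members ran from 288 to 3835 bases with a median of 910, against 2068 over the genes tested in the lola-F set with a length. Within the 66 genes the log2 fold change of lola-F embryos did not follow length (Spearman's rho 0.01), nor did it closely follow in lola-null embryos (−0.17) or adult controls (0.18). Across libraries the deviations of all genes from the mean over the libraries of their set did vary with length. Signs within a set balance by construction, since this mean includes mutants and controls. The rho of deviation with length was −0.21 to −0.50 in the lola-F mutants and 0.22 to 0.54 in their controls, −0.61 in lola-null mutant 2 and −0.09 in mutant 1, and 0.36 and 0.52 in the lola-null-set controls. Lola-null mutant 2 and lola-F mutant 3, the libraries with the strongest negative relation, also had the highest ribosomal protein levels of their sets. With the length trend removed the single-copy median was 0.58 in lola-F embryos and 0.00 in lola-null embryos, where 34 of 66 members stayed positive.

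Exons of 29 members overlap those of another gene in the annotation, 20 of them a protein-coding gene, and in 17 of these 20 cases at least 1 such partner lies on the opposite strand. Examples are RpL12 and RpL39, which overlap each other, RpL24, RpL28 and RpS28b. The sources used here do not say whether the counting used strand, so the values of these members are uncertain to the extent that reads of their partners were counted with them or removed as ambiguous. RpL7-like, RpS28-like and RpS27A overlap a protein-coding gene on the same strand, where reads can be lost as ambiguous whether or not strand was used.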

How the data were processed

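RNA of whole animals was made into strand-marked libraries with the NEBNext Ultra Directional kit after Trizol extraction, per the labels' protocols. The authors' deposited files hold raw read counts per gene, and the submitters' processing notes name STAR 2.5.0c, HTSeq 0.6.1p1 and BDGP6. The embryo files are named filtered, and the sources used here do not say what was removed. Rows that name no gene (unmapped, ambiguous or multimapped reads, 6.32% to 66.7% of reads) stayed out of library sizes and tests. Genes were matched to the BDGP6.54 annotation, where 17252 of 17558 identifiers have an entry.

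Each set was fitted with edgeR 4.0.16 in R 4.3.3 (filterByExpr, TMM scaling, quasi-likelihood F test, Benjamini-Hochberg adjustment over all genes, threshold 0.05), tested on simulated data. The comparison of effects used the 10 embryo libraries, and stages used the 7 controls. SE was taken from the size of the log2 fold change over the root of its F value. Levels are CPM on TMM-scaled libraries, medians per library used log2 of CPM plus 0.5, and counting intervals are exact 95% ones that cover counting error only. Alternatives were other scalings, library sizes without the members, DESeq2 1.42.0, no low-count filter, removal of a spline trend (5 degrees of freedom) with exonic length, replicate blocks and leaving out each library. The members and lists were chosen with earlier results of these data known. Named members were all duplicated ones, for each comparison the 4 single-copy members with the largest change each way among those past the threshold and the 3 with the largest and smallest change, RpLP0, RpLP1, RpLP2, sta, RpS2, RpS6, RpL40 and RpS27A, and the 3 most and least abundant per length. From the other lists at most 4 genes past the threshold were named, smallest p first, plus Xrp1, Myc and Thor (eEF1alpha1, also in the rule, was not analysed here). Likeness to other genes over the 14 libraries is not reported, since these fall apart by stage. Same-numbered libraries did not deviate together (r of −0.323 to 0.102), so numbers were not used as pairs. Libraries of a group differed beyond counting noise (chi-square over its degrees of freedom was 3.08 to 85.4), and all were kept as separate samples. Some values that the naming rule picks are not reported here.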

Additional observations from a re-analysis of the deposited data

Results flagged for a closer look

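RpS5b was the member whose response differed between the lola-null and lola-F embryos by a test of the difference itself. Its log2 fold change was 1.51 ± 0.32 in lola-F embryos, with all 3 mutants above all 3 controls, and −1.08 ± 0.50 in lola-null embryos, with both mutants below both controls. The difference was −2.39 ± 0.56 (adjusted p = 0.0272, edgeR's quasi-likelihood test). It kept its direction without each of the 10 libraries in turn (−3.04 to −2.01). It missed 0.05 without some single libraries, among them lola-F control 1 (−2.34, adjusted p = 0.059). By itself the lola-null effect did not pass (adjusted p = 0.149). The lola-F effect (adjusted p = 0.042) was lost without any 1 library. RpS5b was also 5.996-fold higher in the lola-null-set than in the lola-F-set controls.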

How the results depend on the processing

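In lola-F embryos the number of members that rose was 70 with upper quartile scaling (where the median of all genes was 0.17), 77 in DESeq2, 4 with no filter on low counts, 1 with the length trend removed, 0 with the replicate block and 0 to 46 without each library in turn. Of all genes, 943 rose with upper quartile scaling, 815 in DESeq2, 198 with no filter and 171 with the length trend removed. With the replicate block 0 did, and 0 to 504 without each library. All 66 single-copy members stayed positive in each of these fits. In lola-null embryos the number that fell was 0 with upper quartile scaling, in DESeq2 and with the replicate block, 2 with crossed replicate pairs (chosen after seeing the data) and 0 to 2 without each library. The number that rose was 0 to 59 without each library, and with the length trend removed 1 rose, 2 fell and the single-copy median was 0.0033. In lola-O adults no member passed under any of these settings. Their single-copy median was −0.0954 with median-of-ratios factors and in DESeq2, −0.0196 with upper quartile scaling, −0.1578 without the length trend, −0.0348 with the replicate block and −0.4184 to 0.3271 without each library.

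Between the embryo controls, the number of lower members was 33 with median-of-ratios factors, 29 with upper quartile scaling, 27 without the members in library sizes, 41 in DESeq2, 28 without the filter and 4 to 14 without each library. The number of higher ones was 2 to 4 without each library, with medians of −0.6928 to −0.3806. Lower among all genes were 4024 with median-of-ratios factors, 3971 with upper quartile scaling, 3852 without the members in library sizes, 3920 in DESeq2 and 3830 without the filter. With the length trend removed 8 members were higher and 3 lower, where 4571 of all genes were higher and 3374 lower. The median was then 0.1324, and RpS27A (0.0853) and RpL34a (0.7306) turned positive. RpL22-like was −1.6094 without lola-null control 2 and 1.3461 without control 1, and passed in both. In adults against lola-F-set controls, removal of the length trend left 3 higher members, a median of −3.5262 and RpS15Ab at −1.5818. In the comparison of effects the number of lower members was 2 without the filter, RpL22-like and RpS5b, and 0 to 1 without each library. The cause of these changes was not tested. The replicate numbers did not pair the libraries, and the replicate block changed no other count of members by over 1.5 times.

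Groups of 2 or 3 pooled libraries limit every test, and calls in lola-F embryos lie close to the threshold. Values of scarce copies rest on few counts: those of RpL22-like in the lola-null set were 14, 5, 9 and 110.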
